A study of Homo sapiens with 12 samples.

Results

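The genes described here are the small nucleolar RNA (snoRNA) and small Cajal body RNA (scaRNA) genes of human mammary epithelial cells, followed across 4 groups of RNA sequencing libraries. They were taken as all rows whose symbol starts with SNORA, SNORD or SCARNA, that stand in all 4 deposited tables, and whose FPKM (fragments per kilobase and library size) was 1 or more in 3 or more of the 6 mock columns. Of 26357 rows common to the tables, 395 carry such a symbol, and 129 met the rule: 44 SNORA, 82 SNORD and 3 SCARNA genes, called members below. The other 266 rows missed it, 166 of them with no read in any mock library. The mock values chose the members, so mock levels and the mock difference between the lines are described with no test.

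The groups were HMLE-Twist cells with 0.2 uM salinomycin for 24 h, HMLE-Twist cells with the DMSO mock, HMLE-pBp cells with 0.2 uM salinomycin for 24 h, and HMLE-pBp cells with the DMSO mock, each with 3 biological replicates. HMLE cells are immortalised human mammary epithelial cells. The HMLE-Twist line, made with the transcription factor gene TWIST1, is labelled as having the EMT (epithelial to mesenchymal transition) phenotype and HMLE-pBp is the line set against it. Neither the promoter behind TWIST1 nor whether a line is 1 clone is stated in the labels. Salinomycin is a potassium ionophore. Under salinomycin all 5 mesenchymal markers tested were higher and all 5 epithelial markers lower in HMLE-Twist than in HMLE-pBp, with median log2 differences of 4.16 and -7.40.

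snoRNAs guide the chemical modification of other RNAs. C/D box snoRNAs (SNORD) direct the methylation of ribose by fibrillarin, and H/ACA box snoRNAs (SNORA) direct the conversion of uridine to pseudouridine by dyskerin, mostly in ribosomal RNA. scaRNAs do the same for spliceosomal RNAs in Cajal bodies. In human cells most of them lie in introns of a host gene and are trimmed out of the spliced intron by exonucleases until the bound proteins stop them. Mature snoRNAs and scaRNAs have no poly(A) tail, whereas the libraries were made with a kit for mRNA, and the tables do not tell a mature RNA from the stretch of host transcript that contains it.

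The sequences below are shown because their genes carry the difference in salinomycin response described further on, and SNORD12 because it shares its host with SNORD12B. They are from the GENCODE release 29 transcripts, 5′ to 3′. Capitals mark the C box (TGATGA) and D box (CTGA) in SNORD genes, the H box (ANANNA) and the ACA near the 3′ end in SNORA genes, and only the ACA at the 3′ end in SCARNA12. SNORA57 has no ANANNA in its middle part.
SNORA24: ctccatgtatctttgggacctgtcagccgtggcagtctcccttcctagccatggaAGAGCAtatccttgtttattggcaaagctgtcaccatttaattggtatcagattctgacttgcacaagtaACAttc
SNORA57: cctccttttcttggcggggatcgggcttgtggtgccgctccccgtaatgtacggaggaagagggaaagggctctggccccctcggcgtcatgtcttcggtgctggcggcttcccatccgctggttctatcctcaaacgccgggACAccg
SNORD60: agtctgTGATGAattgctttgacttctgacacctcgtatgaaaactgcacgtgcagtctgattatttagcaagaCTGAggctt
SNORD12B: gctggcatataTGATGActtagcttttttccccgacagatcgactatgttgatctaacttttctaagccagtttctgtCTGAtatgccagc
SNORD12: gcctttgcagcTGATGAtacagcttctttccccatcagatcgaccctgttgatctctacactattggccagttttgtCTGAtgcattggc
SCARNA12: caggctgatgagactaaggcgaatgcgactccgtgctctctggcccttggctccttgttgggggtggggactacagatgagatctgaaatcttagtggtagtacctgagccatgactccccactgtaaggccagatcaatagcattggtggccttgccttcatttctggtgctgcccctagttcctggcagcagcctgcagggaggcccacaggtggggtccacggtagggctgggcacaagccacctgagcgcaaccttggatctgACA

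SNORD12B and SNORD12 shared letters in the same order over 79.1% of the longer sequence. That measure leaves gaps free and can exceed the identity of a usual alignment. Transcripts of the same symbol were found in GENCODE for 113 members. The 41 SNORA members among them had a median length of 133 bases (range 121 to 272), and the 70 SNORD members one of 75 bases (range 64 to 237). The D box letters CTGA stood in the last 20 bases of 98.6% of these SNORD members, against 93.7% of the 205 other SNORD transcripts, and an exact C box TGATGA in the part nearest the 5′ end, 1 of 3 equal parts, of 65.7%, against 74.6%. ACA stood in the last 8 bases of 85.4% of the SNORA members, against 91.1% of the 101 other SNORA transcripts, and ANANNA in the middle part of 92.7%, against 92.1%. Only the transcribed strand was searched, and a match is a run of letters, not a tested site. By the same gap-free measure as for SNORD12B, 2 pairs of members stood at 85% or more. They were SNORD88B with SNORD88C (91.2%) and SNORD45C with SNORD45A (85.7%), between which reads could be split.

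Every member had a host gene on the same strand, 63 hosts in all. GAS5 held 10 members, SNHG1 and TAF1D 8 each, 42 members lay in ribosomal protein genes, and 34 hosts held a single member. Chromosomes 1 and 11 carried 24 and 23 members. For 82 members the annotation also places an exon of some host transcript, often a retained intron, over the member.

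Whole reads were recovered for all libraries, 17.90 to 26.69 megareads per library. The reads of 128 members were settled. The exception was SNORD81, whose deposited FPKM was 6.61, 7.08 and 13.1 in HMLE-Twist mock, against 20.7, 40.1 and 38.2 in HMLE-pBp mock, and which enters nothing below. Members were thinly covered. Their median was 7.12 reads per library, 50 of the 128 averaged under 5 reads and 23 averaged at least 20. This limits what a test of a single member can show. FPKM below was rebuilt on 1 scale for all 12 libraries.

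The third replicate stood apart in every group. Summed over the 128 members it held 1.69 times the mean of replicates 1 and 2 in HMLE-Twist salinomycin, 2.39 times in HMLE-Twist mock, 2.0 times in HMLE-pBp salinomycin and 1.41 times in HMLE-pBp mock. It was the highest of the 3 for 65.6%, 77.3%, 77.3% and 68.8% of members in these groups, against 32.0%, 31.0%, 30.8% and 36.8% of all genes tested. The counts of members called in the 4 comparisons tested are therefore also given without replicate 3 of every group.

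Together the members made up a small share of the reads, lowest in HMLE-Twist and highest in HMLE-pBp mock. Their sum, in CPM (reads per megaread of the library), was 35, 35 and 59.1 in the HMLE-Twist salinomycin libraries, against 26.8, 22.8 and 59.2 in HMLE-Twist mock. In HMLE-pBp it was 49.3, 64.7 and 114 with salinomycin, against 105, 127 and 164 with mock. The HMLE-Twist salinomycin values lay within the range of HMLE-Twist mock, and the HMLE-pBp groups overlapped through the third salinomycin replicate only. Fewer cells of a type and less RNA per cell cannot be told apart in such bulk samples. The means were 43.0 ± 13.9 in HMLE-Twist salinomycin, 36.3 ± 20 in HMLE-Twist mock, 76.0 ± 33.8 in HMLE-pBp salinomycin and 132 ± 29.8 in HMLE-pBp mock (SD, n = 3 each). The classes ran in the same order: the SNORA sum averaged 20.3, 17.3, 37.3 and 61.5 CPM over the groups in this order, and the SNORD sum 20.9, 17.3, 36.4 and 66.0.

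**Figure D1:**
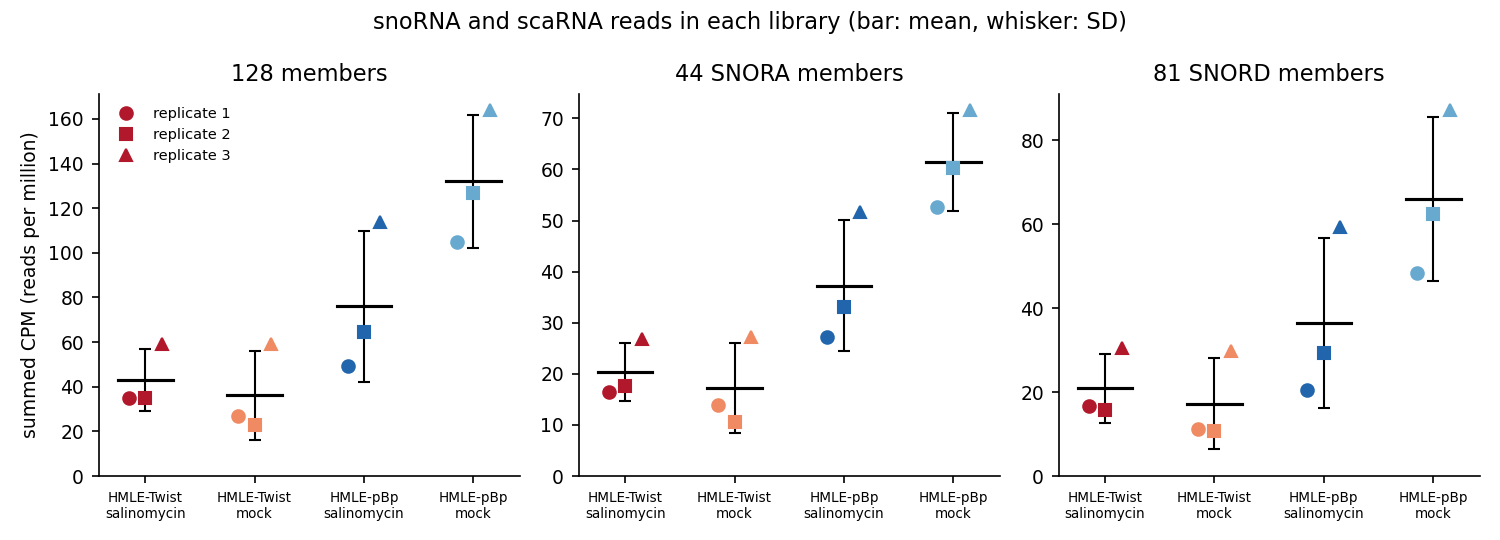
Summed CPM (vertical axis, linear from 0) of all 128 members, the 44 SNORA and the 81 SNORD members in each of the 12 libraries. Marks are replicates 1 (circle), 2 (square) and 3 (triangle), bars are means and whiskers SD (n = 3). The third replicate is the highest mark of every group, and HMLE-pBp mock lies between 105 and 164 for all members.

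SNORD47, in GAS5, which guides methylation of the large-subunit ribosomal RNA, was the member with the most reads and the highest FPKM. Its FPKM was 21.8, 17.9 and 33.3 in HMLE-Twist salinomycin, against 10.0, 10.1 and 33.7 in HMLE-Twist mock. In HMLE-pBp it was 35.3, 45.2 and 80 with salinomycin, against 79.7, 93.3 and 134 with mock. All 6 HMLE-Twist libraries lay below all 6 HMLE-pBp libraries. SNORD22 in SNHG1, a snoRNA with no assigned methylation site in ribosomal RNA, came next. Its mean FPKM was 11.4 ± 4.64, 8.0 ± 5.90, 22.9 ± 9.47 and 49.6 ± 11.2 in HMLE-Twist salinomycin, HMLE-Twist mock, HMLE-pBp salinomycin and HMLE-pBp mock (SD, n = 3 each, and in this order below). SNORA70 in RPL10 averaged 11.5 ± 2.54, 7.91 ± 4.39, 30.1 ± 10.2 and 35.4 ± 2.18 FPKM, so that its HMLE-pBp groups lay close together. SNORA40 in TAF1D averaged 13.1 ± 5.93, 10.5 ± 6.95, 23.0 ± 8.19 and 33.0 ± 5.30 FPKM. SNORA61 in SNHG12 averaged 9.20 ± 2.03, 8.45 ± 4.37, 20.7 ± 12.2 and 40.7 ± 11.2 FPKM. SNORD36A in RPL7A averaged 7.62 ± 3.16, 6.99 ± 5.33, 16.3 ± 10.8 and 28.7 ± 9.25 FPKM. In each of these 6 genes the group means ran in the same order, HMLE-Twist mock lowest and HMLE-pBp mock highest, and the HMLE-Twist means differed by less than the SD of HMLE-Twist mock. Between the lines under salinomycin SNORD47 (-1.07 ± 0.43, limma adjusted p = 0.0458) and SNORA70 (-1.27 ± 0.30, adjusted p = 0.0029) were lower in HMLE-Twist past the threshold of 0.05, as log2 differences of FPKM + 1 with SE, and the other 4 did not pass.

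Over all 128 members the median of the mean FPKM was 1.81 in HMLE-Twist salinomycin, 1.47 in HMLE-Twist mock, 3.57 in HMLE-pBp salinomycin and 6.16 in HMLE-pBp mock. Members at 10 FPKM or more numbered 4, 2, 23 and 46 in these groups. SNORD4B and SNORD12B had no read in HMLE-Twist mock and SNORD24 none in HMLE-pBp salinomycin. The rule was met mostly through HMLE-pBp: 119 members reached 1 FPKM in all 3 of its mock columns, 49 in all 3 HMLE-Twist mock columns, and 13 in HMLE-pBp mock alone with no HMLE-Twist mock column. Just inside the rule stood SNORD59A, SNORD67 and SNORD116-4, with the third highest mock FPKM at 1.002, 1.015 and 1.035, and just outside it SNORD33, SNORD88A and SNORD43, at 0.989, 0.976 and 0.897.

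Under mock 127 of the 128 members had a lower mean log2(FPKM + 1) in HMLE-Twist than in HMLE-pBp, with a median log2 difference of -1.63, against -0.00 over all genes tested. The 3 libraries of HMLE-Twist mock all lay below the 3 of HMLE-pBp mock for 94 members (73.4%), against 37.2% of the 11979 genes tested, and the reverse held for none, against 36.7%. Since the rule read these columns, and most members met it through HMLE-pBp, nothing is drawn from these values. Within replicate numbers the ratio of summed CPM, HMLE-Twist mock over HMLE-pBp mock, was 0.255, 0.180 and 0.361.

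**Figure D2:**
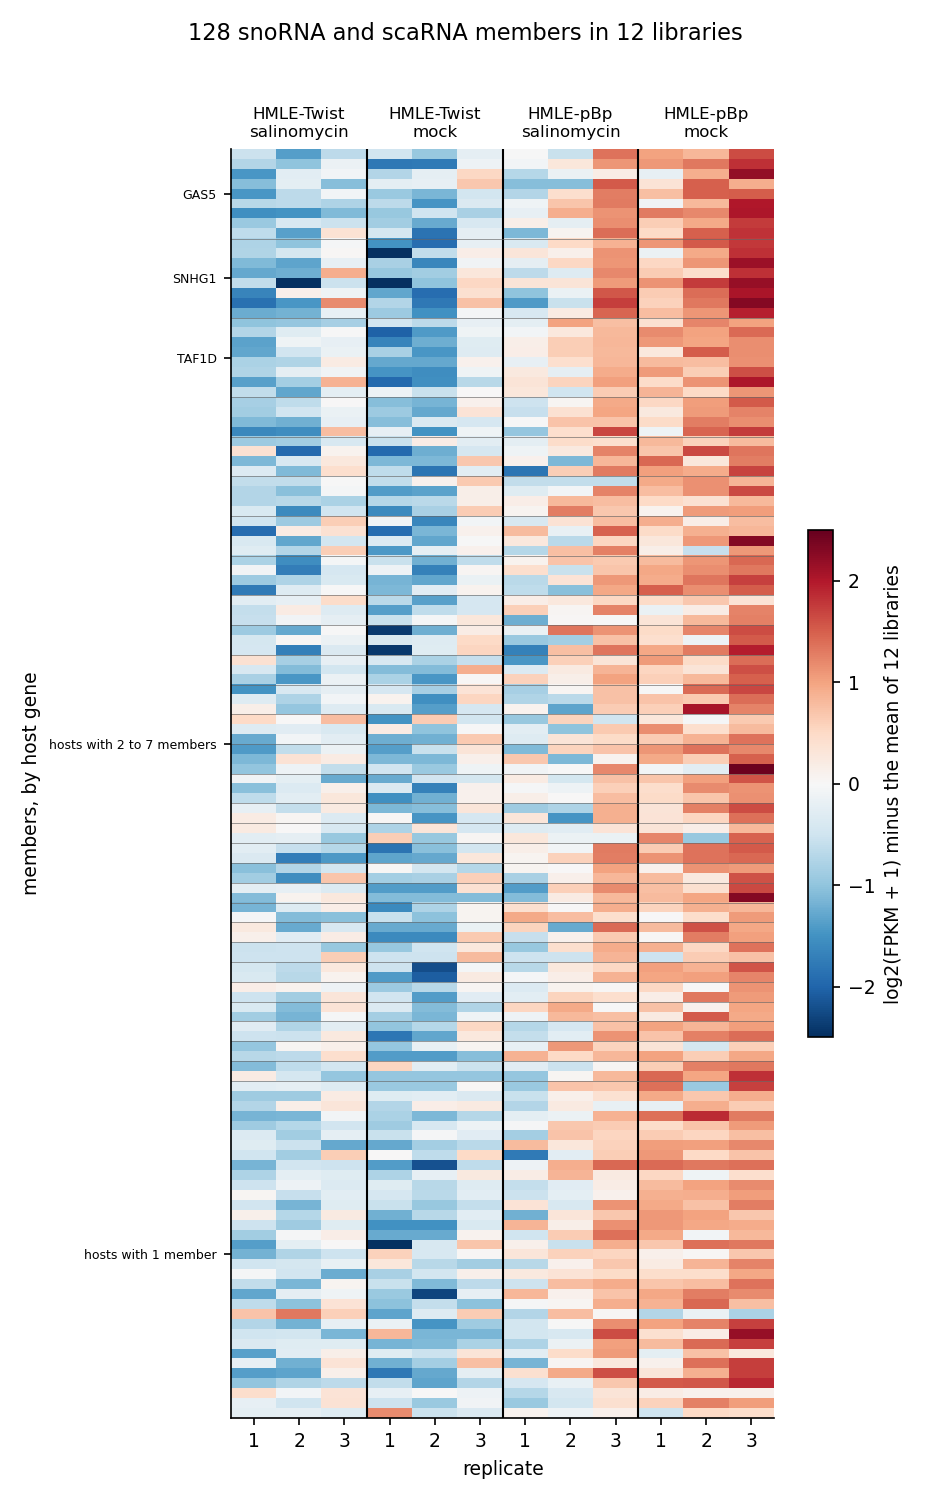
log2(FPKM + 1) of the 128 members (rows, ordered by host gene, with the hosts of 8 or more members named) in the 12 libraries (columns), as the difference from each member's mean over the 12. Red is above and blue below that mean; HMLE-pBp mock columns are mostly red, HMLE-Twist columns mostly blue, and replicate 3 is the reddest column of each group.

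The salinomycin columns took no part in choosing the members. Since members met the rule mostly through HMLE-pBp mock, though, the choice favours a lower level in HMLE-Twist, also under salinomycin, and the counts below are read with that limit. Members were lower in HMLE-Twist: 39 of 128 (30.5%) passed at a limma adjusted p under 0.05, all 39 lower and none higher, 19 of them SNORA, 19 SNORD and 1 SCARNA. Of all 11979 genes tested 63.4% passed, 32.2% lower and 31.2% higher, so the share of members called lower was near that of all genes. The median log2 difference was -0.74 for members and 0.01 for all genes, and 115 members (89.8%) lay below 0, against 49.5% of all genes. HMLE-Twist and HMLE-pBp libraries did not overlap, with HMLE-Twist lower, for 35 members (27.3%), against 34.9% of all genes, and the reverse held for none, against 35% of all genes. Of the 48 members at 1 FPKM or more in all 6 mock columns 17 passed (35.4%), all lower, with a median of -0.80. Of the 13 with no HMLE-Twist mock column at that level 5 passed, SNORA13, SCARNA9L, SNORA5C, SNORA26 and SNORA71B, all lower. Leaving out 1 library brought the count down to 23 (without HMLE-Twist salinomycin replicate 1), 25 (without its replicate 2) or 22 (without HMLE-pBp salinomycin replicate 3). Of all genes 57%, 58.1% and 58.7% passed in these settings. Without replicate 3 of every group 51 members passed, 49 lower and 2 higher, against 28% of all genes lower and 25.6% higher. Within replicate numbers the summed CPM, HMLE-Twist over HMLE-pBp, stood in ratios of 0.710, 0.541 and 0.518.

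The members with the largest differences under salinomycin were mostly C/D box genes, the larger class. By share, 43.2% of the 44 SNORA members passed, against 23.5% of the 81 SNORD members and 63.4% of all genes. The SNORA median was -0.85 and the SNORD median -0.63. SNORD78, in GAS5, a guide for the large-subunit ribosomal RNA, had 0.798, 0.852 and 1.42 FPKM in HMLE-Twist salinomycin, against 3.53, 8.79 and 10.3 FPKM in HMLE-pBp salinomycin. These ranges did not overlap, and the log2 difference was -1.99 ± 0.31 (SE, limma adjusted p = 0.000122). SNORD87, in SNHG6, also a guide for the large subunit, had 1.13, 1.21 and 5.04 FPKM in HMLE-Twist, against 6.28, 9.72 and 15.9 in HMLE-pBp (-1.84 ± 0.51, adjusted p = 0.00684). SNORD58C, in RPL17, had 2.87, 0.511 and 0.852 FPKM in HMLE-Twist, against 4.24, 6.45 and 11.2 in HMLE-pBp (-1.82 ± 0.45, adjusted p = 0.00349). The ranges of both separated the lines in every library. SNORD96A, in GNB2L1, which guides methylation of the short RNA of the large ribosomal subunit, had 2.40, 4.47 and 4.26 FPKM in HMLE-Twist, against 5.96, 13.2 and 19.6 in HMLE-pBp (-1.46 ± 0.40, adjusted p = 0.00676). SNORA1, in TAF1D, had 0.663, 0.707 and 0.884 FPKM in HMLE-Twist, against 1.83, 5.68 and 4.66 in HMLE-pBp (-1.44 ± 0.28, adjusted p = 0.000738). SNORA45B, in RPL27A, had 3.95, 1.40 and 1.46 FPKM in HMLE-Twist, against 8.74, 7.65 and 5.78 in HMLE-pBp (-1.43 ± 0.34, adjusted p = 0.00296). These genes were lower in all 3 HMLE-Twist libraries than in any HMLE-pBp library, and with SNORD45C in RABGGTB (-1.38 ± 0.40, adjusted p = 0.00946) they passed under every alternative in which they were tested. SNORD45C was not among the genes tested when 10 reads in 3 libraries were required.

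Of the 12 members named for this difference, 5 others passed but lost the call when 1 library was left out. SNORD28 (-1.80 ± 0.69) and SNORD26 (-1.34 ± 0.48) lie in SNHG1, SNORD77 (-1.33 ± 0.47) in GAS5, SNORD36C (-1.49 ± 0.52) in RPL7A and SNORD49A (-1.49 ± 0.59) in LRRC75A-AS1, with limma adjusted p of 0.0368, 0.0283, 0.0256, 0.0252 and 0.0441. All were lost without HMLE-Twist salinomycin replicate 2 or without HMLE-pBp salinomycin replicate 2 or 3. SNORD26, SNORD49A and SNORD77 were also lost without HMLE-Twist salinomycin replicate 1, SNORD77 without its replicate 3, SNORD28 without HMLE-pBp salinomycin replicate 1, and SNORD49A without the second mock replicate of either line. Their highest adjusted p over the alternatives was 0.109 for SNORD26, 0.165 for SNORD28, 0.108 for SNORD36C, 0.147 for SNORD49A and 0.103 for SNORD77. SNORD77 rests on 3 reads in HMLE-Twist salinomycin against 13 in HMLE-pBp salinomycin, a ratio of 0.194 with an exact 95% interval of 0.0355 to 0.706 that covers counting error only.

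In HMLE-pBp cells members mostly lay lower with salinomycin than with mock. 12 of 128 (9.38%) fell and none rose, at a limma adjusted p under 0.05, against 9.62% of all genes falling and 10.1% rising (19.7% called in all). 118 members (92.2%) lay below 0, against 51.7% of all genes, and the median log2 difference was -0.74, against -0.01. Same-numbered libraries of a line deviated together, though to different degrees. With the replicate number as a block within each line, an unplanned setting that takes such libraries as pairs, 65 members fell (50.8%) and none rose. Of all genes 19.5% fell and 17.7% rose in that setting. limma-voom on the recovered reads, with the replicate number as a block across all groups, called fewer: 20 members fell (15.6%) and none rose, against 17.6% and 17% of all genes. In replicates 1, 2 and 3 the summed CPM with salinomycin was 0.470, 0.509 and 0.695 times that with mock, and 120, 106 and 113 of the 128 members were lower. For 27 members (21.1%) the salinomycin libraries all lay below the mock libraries, against 21.3% of all genes, and the reverse held for none, against 20.9%. With all 12 libraries and without the block, the share called lower was near that of all genes.

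The rule set a minimum under mock, so the mock side of these counts does not stand apart from it. Of the 48 members at 1 FPKM or more in all 6 mock columns 5 fell (10.4%), with a median of -0.89. Of the 13 with no HMLE-Twist mock column at that level all 13 lay below 0. In that set 4 fell past the threshold (30.8%), SNORA26, SNORA20, SNORD12B and SNORD52. Of the 119 genes chosen by the same level in the salinomycin columns instead, 112 are also members, so similar results follow in large part from shared genes. Among the 119, 10 fell and none rose, with a median of -0.74, the same as that of the 128 members. Of the 23 members with at least 20 reads 2 fell, with a median of -0.87. The count was 36 without HMLE-pBp salinomycin replicate 3 (21.9% of all genes) and 30 without replicate 3 of every group (9.91% of all genes). It was 5 and 6 without HMLE-pBp salinomycin replicates 1 and 2 (11% and 14.8% of all genes). Without HMLE-pBp mock replicates 2 and 3 it was 7 and 6 (12.1% and 10.3% of all genes).

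SNORA24, in SNHG8, a guide for the small-subunit ribosomal RNA, fell furthest in HMLE-pBp. It had 2.91, 3.62 and 7.32 FPKM with salinomycin, against 14.2, 14.4 and 18.3 FPKM with mock, and the ranges lay well apart (-1.64 ± 0.25, limma adjusted p = 0.00111). SCARNA12, in PHB2, a guide for a spliceosomal RNA and the best covered of the 12, had 4.42, 5.67 and 7.48 FPKM with salinomycin, against 13.6, 13.7 and 15.2 with mock (-1.17 ± 0.18, adjusted p = 0.00111). SNORA57, within METTL12 (CSKMT in GENCODE), a small-subunit guide, had 3.52, 4.60 and 6.78 FPKM with salinomycin, against 10.9, 12.7 and 14.6 with mock (-1.23 ± 0.19, adjusted p = 0.00106). In these genes every salinomycin library lay below every mock library. SNORD12, in ZFAS1, a large-subunit guide, had 1.59, 1.17 and 2.24 FPKM with salinomycin, against 3.82, 6.55 and 6.78 with mock (-1.32 ± 0.28, adjusted p = 0.00669). SNORD24, in RPL7A, had no read in any salinomycin library, against 3 reads in each mock library, at least 2.97-fold lower with a floor of 3 reads over the group (adjusted p = 0.00146). These 5 genes passed under every alternative in which they were tested. For SNORD24 these were 21 alternatives, against 23 for SNORA24, SNORA57 and SCARNA12. SNORD24 rests on 9 mock reads and was not among the genes chosen by the salinomycin columns instead.

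The other 7 genes that fell were less firm. SNORD60 in SNHG19 (-1.27 ± 0.36, limma adjusted p = 0.0276) had 1.72, 3.18 and 8.52 FPKM with salinomycin, against 7.10, 11.4 and 14.2 with mock, and SNORD99 in SNHG12 (-1.62 ± 0.53, adjusted p = 0.0494) 1.19, 0.659 and 5.68, against 8.59, 6.63 and 8.71. The groups overlapped in the first and not in the second. SNORA26 in DANCR (-1.35 ± 0.33, adjusted p = 0.0143), SNORA20 in TCP1 (-1.29 ± 0.33, adjusted p = 0.0192), SNORD12B in ZFAS1 (-1.45 ± 0.39, adjusted p = 0.0237), SNORD69 in GNL3 (-1.19 ± 0.33, adjusted p = 0.0274) and SNORD52 in C6orf48 (-0.86 ± 0.28, adjusted p = 0.0483) also fell. Of these, all but SNORD69 met the rule through HMLE-pBp mock alone, the higher side of this comparison. In the tables SNORD52 has a length of 320 bases, against 64 in RefSeq, so its level per length is understated. All 7 lost the call without HMLE-pBp salinomycin replicate 1, and all but SNORD69 without its replicate 2. Leaving out HMLE-pBp mock replicate 2 ended all but SNORD12B, its replicate 3 all but SNORA26, and its replicate 1 SNORD12B, SNORD52 and SNORD99. SNORD52 and SNORD99 were also lost without HMLE-Twist salinomycin replicate 2 or HMLE-Twist mock replicate 2, and SNORD52 without HMLE-Twist mock replicate 1 or 3. The highest adjusted p over the alternatives was 0.0632 for SNORA26, 0.0809 for SNORA20, 0.101 for SNORD12B, 0.114 for SNORD60, 0.118 for SNORD69, 0.178 for SNORD99 and 0.185 for SNORD52.

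**Figure D3:**
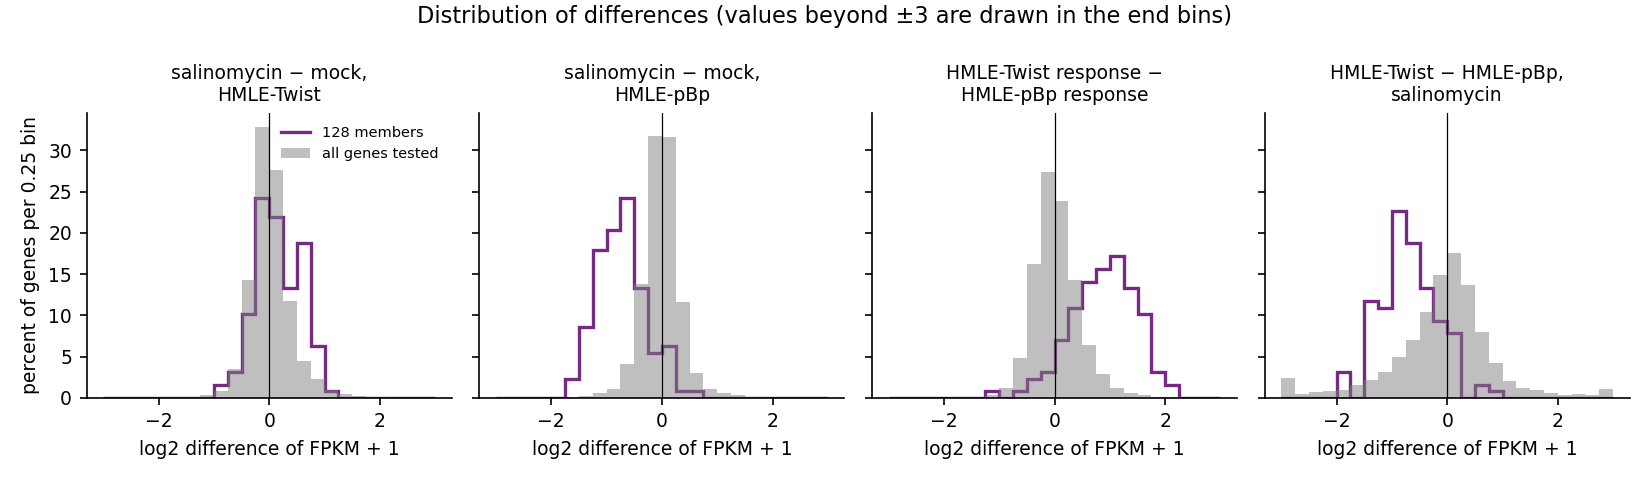
Distribution of log2 differences of FPKM + 1 (horizontal axis) for the 128 members (line) and all 11979 genes tested (grey), in percent per bin, for the 4 comparisons tested. Members centre on 0.14 for salinomycin against mock in HMLE-Twist, on -0.74 in HMLE-pBp, on 0.91 for the difference of the responses and on -0.74 between the lines under salinomycin.

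In HMLE-Twist cells few members passed. 3 of 128 (2.34%) changed between salinomycin and mock, 2 higher and 1 lower, against 27.1% of all genes, 13.3% higher and 13.8% lower. 78 members (60.9%) lay above 0, against 47.7% of all genes, with a median log2 difference of 0.14, against -0.01. Both genes called higher, SNORA5C and SNORD19, reached 1 FPKM in no HMLE-Twist mock column and met the rule through HMLE-pBp mock alone. Of the 48 members at 1 FPKM or more in all 6 mock columns none passed, with a median of 0.19. The summed CPM with salinomycin was 1.31, 1.54 and 0.998 times that with mock in replicates 1, 2 and 3. With the replicate number as a block within the line 15 members rose (11.7%) and 5 fell (3.91%), against 20.1% and 21.1% of all genes (41.2% in all). limma-voom with the block across all groups called 2 higher (1.56%) and 1 lower, against 20.3% and 20.2% of all genes. The groups did not overlap for 3 members higher and 3 lower with salinomycin (2.3% each), against 19.5% and 21.2% of all genes. The median turned to -0.04 without HMLE-Twist salinomycin replicate 3 and to -0.05 without HMLE-Twist mock replicate 2. The count was 15 without HMLE-Twist mock replicate 3 and 16 without replicate 3 of every group, and 5 without HMLE-pBp salinomycin replicate 1. Of all genes 29.9%, 17.2% and 29.9% passed in these settings.

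All 3 genes rest on very few reads. SNORA5C, in TBRG4, rose to 0.629, 0.671 and 2.52 FPKM in HMLE-Twist salinomycin, against 0, 0 and 0.256 FPKM in HMLE-Twist mock (0.98 ± 0.25, limma adjusted p = 0.0128). Its 13 reads against 1 give a ratio of 13.0, with an exact 95% interval of 1.96 to 554. SNORD19, in GNL3, a guide for the small-subunit ribosomal RNA, had 1.13, 1.21 and 2.52 FPKM, against 0.598, 0 and 0.922 (0.81 ± 0.24, adjusted p = 0.0232). The ratio of its 9 reads to 3 was 3.01 after scaling for depth, with an interval of 0.751 to 17.3 that includes no difference, and the call was lost without HMLE-Twist salinomycin replicate 3 or mock replicate 2 (adjusted p up to 0.0995) and under limma-voom, without and with the replicate block (adjusted p = 0.119 and 0.0896). SNORA68 fell to 0, 0.346 and 0.576 FPKM, against 2.39, 0.727 and 1.32 (-0.89 ± 0.24, adjusted p = 0.0171). Its 3 reads against 14 give a ratio of 0.215 (0.0396 to 0.770), and the call was lost without HMLE-Twist salinomycin replicate 1 or mock replicate 1 (adjusted p up to 0.0782). These intervals cover counting error only.

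The difference of the responses asked whether salinomycin moved members differently in the lines. It contains the HMLE-pBp mock columns through which most members met the rule, and a minimum there favours a fall in HMLE-pBp and with it a positive difference. It was positive, that is, the response of HMLE-Twist lay above that of HMLE-pBp, for 119 of 128 members (93.0%), against 49.7% of all genes, with a median of 0.91 on the log2 scale, against -0.00. 6 members passed at a limma adjusted p under 0.05 (4.69%), all 6 positive, against 14% of all genes, 7.17% positive and 6.85% negative. Of the 119 genes chosen by the salinomycin columns instead, 112 are also members, so this set is no independent check. Among the 119, 111 (93.3%) had a positive difference, with a median of 0.95. There 5 passed, SCARNA12, SNORA24, SNORA57, SNORD60 and SNORD12B. With the block within each line 49 were positive (38.3%) and 1 negative, against 17.1% and 15.7% of all genes (32.8% in all). limma-voom with the block across all groups called 15 (11.7%), all positive, against 14.7% and 13.2% of all genes. The count was 27 without HMLE-Twist mock replicate 3, 19 without HMLE-pBp salinomycin replicate 3, 3 without HMLE-pBp salinomycin replicate 2 and 27 without replicate 3 of every group. Of all genes 20.4%, 15.3%, 9.28% and 6.2% passed in these settings. Leaving out the 3 genes with a group at 0 reads gave a median of 0.89.

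SCARNA12 kept the call under every alternative. It had 7.19, 4.26 and 5.54 FPKM in HMLE-Twist salinomycin, against 4.88, 3.94 and 5.58 in HMLE-Twist mock, beside the fall in HMLE-pBp given above, and the responses differed by 1.36 ± 0.26 (limma adjusted p = 0.00659). SNORA24 had 1.65, 2.11 and 2.34 FPKM in HMLE-Twist salinomycin, against 2.43, 1.11 and 2.14 in HMLE-Twist mock (difference of responses 1.73 ± 0.36, adjusted p = 0.0101). SNORA57 had 3.76, 5.25 and 4.37 FPKM, against 4.57, 3.25 and 4.47 (1.33 ± 0.27, adjusted p = 0.00879). In all of these the HMLE-Twist groups overlapped, whereas the HMLE-pBp groups did not. SNORD60 had 2.60, 2.77 and 2.77 FPKM in HMLE-Twist salinomycin, against 1.09, 1.17 and 1.69 in HMLE-Twist mock, without overlap (1.96 ± 0.50, adjusted p = 0.0254). SNORD12B had 1.26, 0.446 and 0 FPKM, against no read in HMLE-Twist mock, so that its fitted difference of 2.01 ± 0.55 depends on the added 1 (adjusted p = 0.0331). SNORA20 had 0.653, 0.348 and 1.45 FPKM, against 0.344, 0 and 0.797 (1.68 ± 0.47, adjusted p = 0.0358). SNORD12B and SNORA20 reached 1 FPKM in no HMLE-Twist mock column and met the rule through HMLE-pBp mock alone. SNORD60, SNORD12B and SNORA20 lost the call on leaving out single libraries, with adjusted p up to 0.0695, 0.0862 and 0.0915. All 3 did so without HMLE-Twist salinomycin replicate 1, HMLE-Twist mock replicate 2, HMLE-pBp salinomycin replicate 2 or HMLE-pBp mock replicate 3. SNORD60 did so also without HMLE-Twist salinomycin replicate 3 or HMLE-pBp mock replicate 2, SNORD12B without HMLE-Twist salinomycin replicate 2 or the first mock replicate of either line, and SNORA20 without HMLE-Twist salinomycin replicate 3, HMLE-Twist mock replicate 1, HMLE-pBp salinomycin replicate 1 or HMLE-pBp mock replicate 2. With limma-voom on the recovered reads 1 member passed, SCARNA12 (adjusted p = 0.0238), and SNORA24 and SNORA57 came to 0.0535 and 0.0551.

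**Figure D4:**
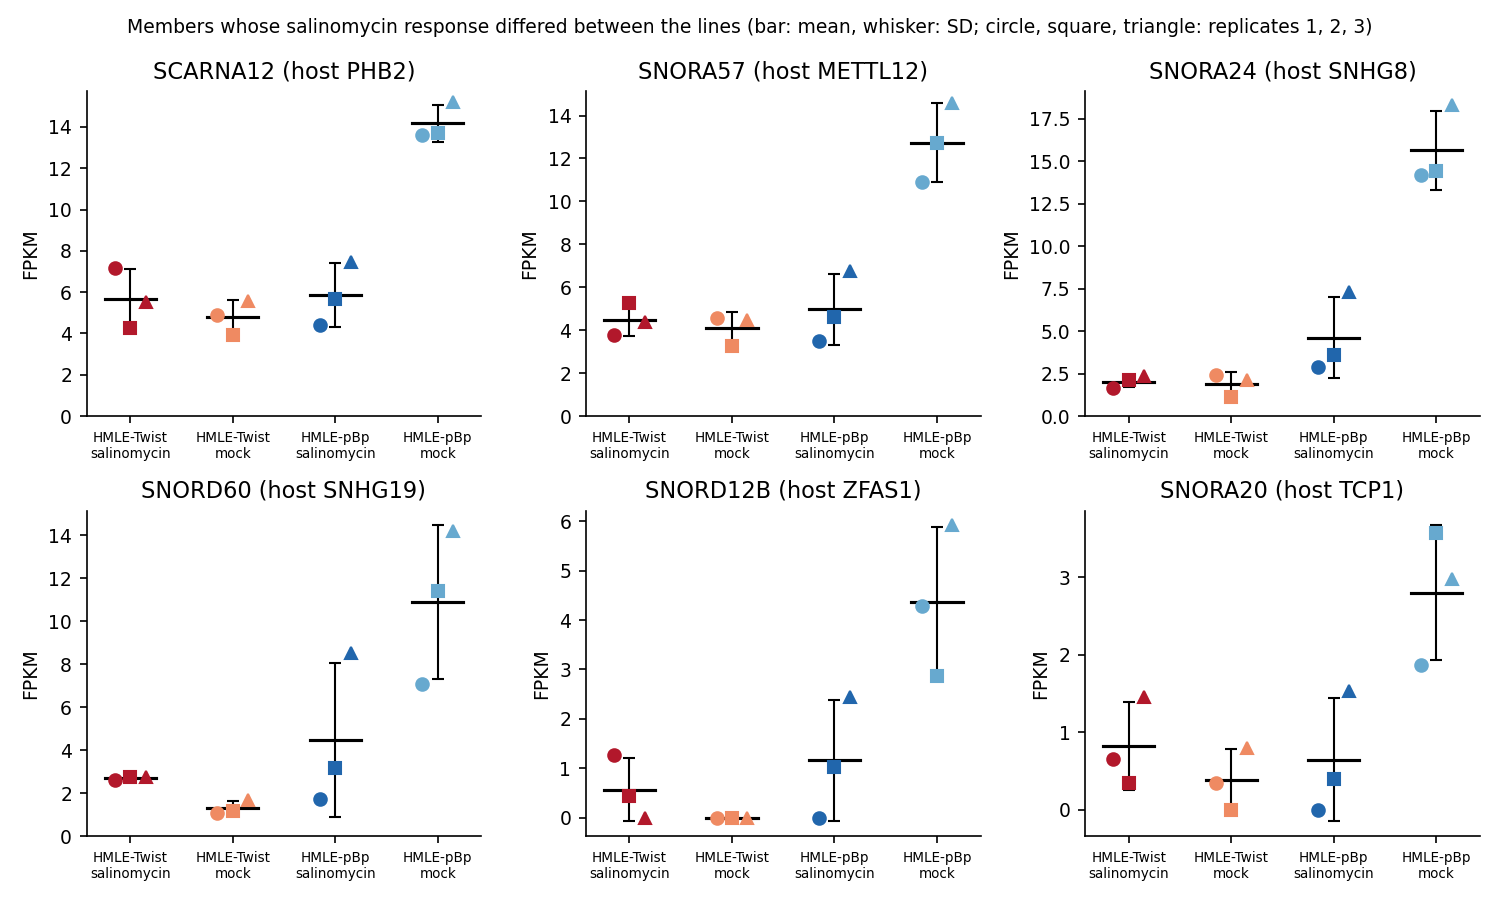
FPKM (vertical axis) of the 6 members whose salinomycin response differed between the lines, in each library of the 4 groups. Marks are replicates, bars means and whiskers SD (n = 3); in all 6 panels the 3 HMLE-pBp mock libraries hold the highest mean.

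Host genes had smaller median differences than the members inside them. A tested host was available for 117 members in 58 host genes. In HMLE-pBp the median log2 difference of the hosts between salinomycin and mock was -0.09, with 4 hosts higher (6.90%) and 10 lower (17.2%) past the threshold, against 10.1% and 9.62% of all genes, and 100 of 117 members (85.5%) lay below their own host. In HMLE-Twist 5 hosts rose and 5 fell (8.62% each, against 13.3% and 13.8% of all genes), with a median of 0.04, and 47 members (40.2%) lay below their host. Between the lines under salinomycin the hosts had a median of 0.20, with 27 higher (46.6%) and 7 lower (12.1%) in HMLE-Twist, against 31.2% and 32.2% of all genes, whereas 109 members (93.2%) lay below their host. The difference of responses was positive past the threshold for 9 hosts (15.5%) and negative for none, against 7.17% and 6.85% of all genes. Across the 117 members the differences of member and host correlated with a Pearson r of -0.01 for salinomycin in HMLE-Twist, 0.24 for salinomycin in HMLE-pBp, 0.18 for the difference of responses and 0.30 between the lines under salinomycin. These are descriptions over genes that share libraries and, in part, hosts.

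Among hosts with at least 4 members the gap between host and members varied. GAS5, a noncoding RNA spliced from a gene full of snoRNAs, had 182 ± 16.8 FPKM in HMLE-pBp salinomycin, against 193 ± 13.8 in HMLE-pBp mock (SD, n = 3 each). Its log2 difference was -0.08 ± 0.08 (limma adjusted p = 0.495), while its 9 settled members had a median of -0.93. In HMLE-Twist GAS5 rose to 178 ± 5.87 FPKM with salinomycin, against 137 ± 2.58 with mock (0.38 ± 0.08, adjusted p = 0.00464), and its members had a median of 0.11. SNHG1 fell to 152 ± 12.0 FPKM in HMLE-pBp salinomycin, against 224 ± 29.7 in HMLE-pBp mock (-0.55 ± 0.10, adjusted p = 0.0035), and its 8 members had a median of -1.0. TAF1D had 32.9 ± 0.914 FPKM, against 38.0 ± 2.15 (-0.20 ± 0.11, adjusted p = 0.218), and its 8 members a median of -0.56. The ribosomal protein gene RPL7A had 829 ± 49.5 FPKM, against 745 ± 34.9 (0.15 ± 0.07, adjusted p = 0.152), and its 4 members a median of -0.48. EIF4A2 stood at -0.18 ± 0.17 and its 4 members at a median of -0.62. The gap was small in NOP56, which fell by 0.64 on the log2 scale with a median of -0.92 for its 4 members. It was close to 0 in SNHG12, which had 26.5 ± 11.4 FPKM, against 52.1 ± 15.7 (-0.99 ± 0.34, adjusted p = 0.0617), with a median of -1.02 for its 4 members. The 12 members that fell in HMLE-pBp lie in 11 hosts, picked here because those members fell in the same libraries. Of these hosts 3 fell and none rose, against 9.62% of all genes falling and 10.1% rising. The 3 were DANCR for SNORA26 (-0.72 ± 0.11, adjusted p = 0.00105), METTL12 for SNORA57 (-0.37 ± 0.10, adjusted p = 0.0266) and GNL3 for SNORD69 (-0.28 ± 0.09, adjusted p = 0.0479). PHB2 for SCARNA12 (-0.16 ± 0.08, adjusted p = 0.178) and TCP1 for SNORA20 (-0.19 ± 0.09, adjusted p = 0.135) did not pass. SNHG8, the host of SNORA24, missed the threshold (-0.52 ± 0.17, adjusted p = 0.0501), and so did SNHG19, the host of SNORD60 (-1.36 ± 0.50, adjusted p = 0.0745). SNHG19 was highest in the third replicate of every group, with 21.6, 25.2 and 38.2 FPKM in HMLE-Twist salinomycin, against 12.0, 25.7 and 43.1 in HMLE-Twist mock. In HMLE-pBp it had 15.5, 31.2 and 70.9 FPKM with salinomycin, against 70.1, 84.0 and 106 with mock.

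**Figure D5:**
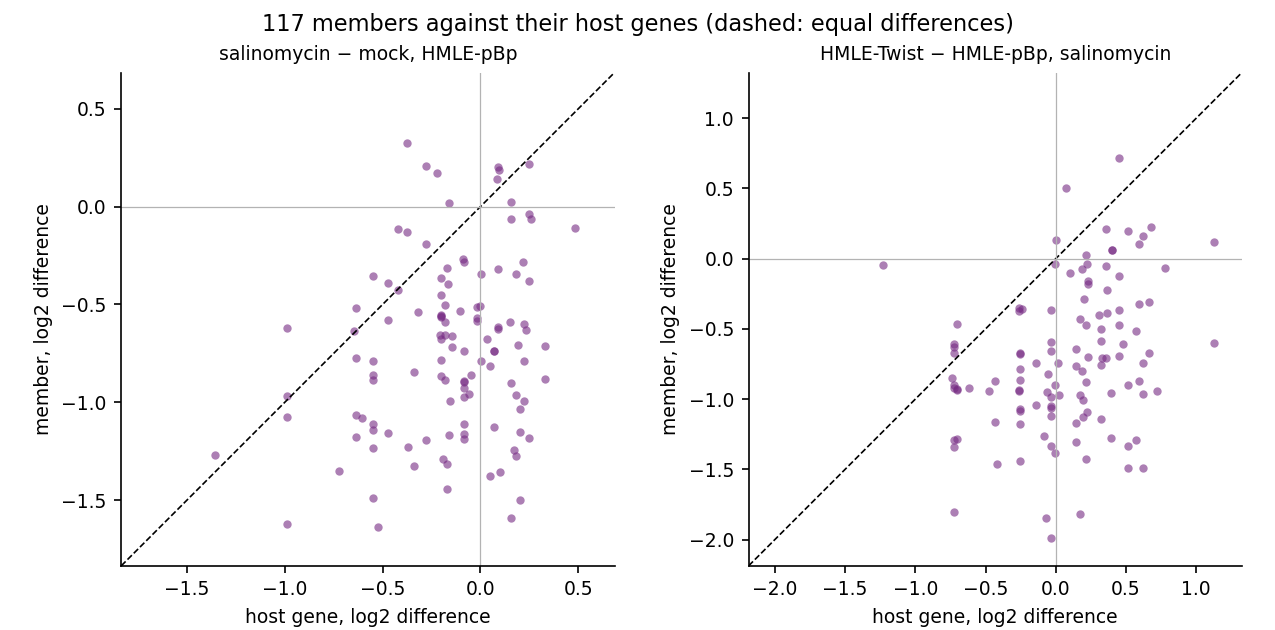
log2 difference of each of 117 members (vertical axis) against that of its host gene (horizontal axis), for salinomycin against mock in HMLE-pBp and for HMLE-Twist against HMLE-pBp under salinomycin. Most points lie below the dashed line of equal differences, 100 and 109 of 117.

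The genes of the snoRNA core proteins numbered 8, of which 1 passed for salinomycin in HMLE-Twist and 2 in HMLE-pBp, against 27.1% and 19.7% of all genes. Of the 4 H/ACA core proteins none passed in HMLE-Twist, and NOP10 alone fell in HMLE-pBp (-0.42 ± 0.10, limma adjusted p = 0.0138). DKC1, which encodes dyskerin, had log2 differences of 0.06 ± 0.12 (adjusted p = 0.748) in HMLE-Twist and -0.21 ± 0.12 (adjusted p = 0.219) in HMLE-pBp. NHP2 had 0.16 ± 0.11 (adjusted p = 0.296) and -0.01 ± 0.11 (adjusted p = 0.952), and GAR1 0.39 ± 0.14 (adjusted p = 0.0547) and 0.10 ± 0.14 (adjusted p = 0.65). Of the 4 C/D core proteins NHP2L1 rose in HMLE-Twist (0.22 ± 0.07, adjusted p = 0.0359) and NOP56, itself the host of 4 members, fell in HMLE-pBp to 99.1 FPKM, against 154 with mock (-0.64 ± 0.11, adjusted p = 0.00197). FBL, which encodes fibrillarin, stood at -0.10 ± 0.07 (adjusted p = 0.307) in HMLE-Twist and 0.00 ± 0.07 (adjusted p = 0.981) in HMLE-pBp, and NOP58 at -0.04 ± 0.11 (adjusted p = 0.848) and -0.23 ± 0.11 (adjusted p = 0.164). Between the lines under salinomycin NOP10 and GAR1 (2 of 4 H/ACA) and NHP2L1 (1 of 4 C/D) were higher in HMLE-Twist. No core protein was lower, and of all genes 31.2% were higher and 32.2% lower.

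Of 10 assembly factors 2 (20%, against 13.8% of all genes) fell in HMLE-Twist with salinomycin, RPAP3 (-0.49 ± 0.10, limma adjusted p = 0.00484) and C12orf45 (-0.52 ± 0.11, adjusted p = 0.0039). In HMLE-pBp RUVBL1 alone (10%, against 9.62% of all genes), an ATPase of the same assembly machinery, fell (-0.34 ± 0.09, adjusted p = 0.0246). None rose in either line. Of 14 tested genes of 3′ end processing and of the Cajal body, 2 rose and 3 fell in HMLE-Twist and 1 rose and 4 fell in HMLE-pBp. That is 35.7% in each line, against 27.1% and 19.7% of all genes. PAPD5, the polymerase that adds short tails to snoRNA ends, rose in both (0.49 ± 0.11, adjusted p = 0.00716 in HMLE-Twist and 0.52 ± 0.11, adjusted p = 0.00788 in HMLE-pBp). NOLC1, a nucleolar and Cajal body chaperone of snoRNPs, rose in HMLE-Twist (0.47 ± 0.10, adjusted p = 0.0045), and COIL, which encodes coilin, fell there (-0.31 ± 0.09, adjusted p = 0.0276). GEMIN5 (-0.74 ± 0.10, adjusted p = 0.000653) and TOE1 (-0.52 ± 0.12, adjusted p = 0.00929), an exonuclease that trims such RNAs, fell in HMLE-pBp. The medians of the 14 genes were -0.15 and -0.11 in the lines, against -0.01 for all genes in both.

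Other RNAs without a poly(A) tail were measured beside the members. The summed CPM of 38 such rows, taken by symbol (RNU, RNY, VTRNA and like names), was 1.22, 2.11 and 2.54 in HMLE-Twist salinomycin. In HMLE-Twist mock it was 1.09, 1.75 and 2.66. For HMLE-pBp it came to 1.90, 1.12 and 2.41 with salinomycin, against 2.69, 2.51 and 4.09 with mock. It was highest in the third replicate of each group and on average in HMLE-pBp mock, as was that of the members. RNU86, among the 38 rows, is an earlier symbol of a C/D box snoRNA gene, so this sum does not stand apart from snoRNAs. It averaged 2.44, 3.24, 3.95 and 11.4 FPKM in HMLE-Twist salinomycin, HMLE-Twist mock, HMLE-pBp salinomycin and HMLE-pBp mock. The 3 rows that passed the filter, RPPH1, RMRP and RNU86, went different ways with salinomycin and none passed the threshold. In HMLE-pBp they stood at 0.30 ± 0.30, -0.88 ± 0.31 and -1.44 ± 0.54 (limma adjusted p = 0.502, 0.0669 and 0.0789). In HMLE-Twist they stood at 0.38 ± 0.30, 0.07 ± 0.31 and -0.26 ± 0.54 (adjusted p = 0.382, 0.903 and 0.774). Of the nuclear RNAs MALAT1 and NEAT1, both were lower in HMLE-Twist than in HMLE-pBp under salinomycin (-1.40 ± 0.20, limma adjusted p = 5.19e-05, and -1.08 ± 0.16, adjusted p = 6.89e-05). With salinomycin NEAT1 rose in HMLE-Twist (0.49 ± 0.16, adjusted p = 0.0366) and stood at 0.31 ± 0.16 in HMLE-pBp (adjusted p = 0.188). MALAT1 stood at 0.26 ± 0.20 (adjusted p = 0.369) in HMLE-Twist and 0.16 ± 0.20 (adjusted p = 0.597) in HMLE-pBp. The part of untailed or nuclear RNA in the results on members was not tested. Of 3 leukocyte markers only CD68, a lysosomal protein gene, was tested, with 37.0 ± 2.26, 23.0 ± 1.78, 12.3 ± 0.51 and 10.5 ± 0.673 FPKM in HMLE-Twist salinomycin, HMLE-Twist mock, HMLE-pBp salinomycin and HMLE-pBp mock (SD, n = 3 each), while PTPRC had at most 0.0143 FPKM on average in any group. No endothelial marker passed the filter.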

How the data were processed

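The libraries were made from 750 ng of RNA with a stranded mRNA kit and sequenced with 75 cycles per end, per the labels. Per the submitters' processing notes, DESeq2 (listed as 1.1.0) and the genome build hg19 were used, while the aligner, the counter and its strand setting are not stated. The deposited mock tables hold FPKM scaled within each table by the authors. The deposited salinomycin tables hold log2 normalized counts with the spread between libraries shrunk, although named FPKM.

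Whole reads were recovered from the steps of the mock values and by inverting the shrinkage. Within 0.1 of a whole read came 100.0% of the mock values of genes with over 100 mock reads, and of the HMLE-Twist and HMLE-pBp salinomycin values 100.0% and 98.9% in snoRNA and scaRNA rows. Reads stayed unsettled for 3450 of 26357 genes, which were dropped (246 of them had over 100 mock reads). FPKM was rebuilt with median-of-ratios size factors over 12 libraries. Genes with FPKM of at least 1 in at least 3 libraries (11979) entered 1 limma fit (version 3.58.1, R 4.3.3, lmFit and eBayes with trend) of 4 groups on log2(FPKM + 1), with Benjamini-Hochberg adjustment at 0.05. The fit was run on simulated data with changes planted only in genes averaging at least 20 reads, as 23 of the 128 members do. How it finds changes in the thinly covered members was not tested. The added 1 understates differences of low genes.

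Same-numbered libraries correlated in their deviations from the group means by 0.45, 0.43 and 0.72 between salinomycin and mock in HMLE-Twist and by 0.54, 0.24 and 0.60 in HMLE-pBp, so the numbers were taken to pair treatments within a line. No 2 libraries held identical reads. That the replicates are biological is stated, but not from which cultures. Hosts are the genes around each member on the same strand in GENCODE release 29 (116 members) or RefSeq (13), matched by name because the build differs.

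Named members are, per tested comparison, up to 12 past the threshold with the largest difference, the 6 highest by FPKM and by reads, their hosts, and genes of lists of core proteins, assembly factors, processing and Cajal body genes, untailed and nuclear RNAs, histones and cell type markers. The members and lists were chosen with earlier results of these data known. Alternatives changed the pseudocount, filter, scaling, block, test, genes left out, libraries and choice of members. A sequence and some host genes are not reported here.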

Additional observations from a re-analysis of the deposited data

Results flagged for a closer look

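The salinomycin response differed between the lines, by the test of the difference itself, in 6 members. That test uses the mock columns by which members were chosen. SNORD12B and SNORA20 reached 1 FPKM in no HMLE-Twist mock column and met the rule through HMLE-pBp mock, where they are high. All 6 had the HMLE-Twist response above the HMLE-pBp response. The differences of log2 responses were 1.36 for SCARNA12, 1.33 for SNORA57, 1.73 for SNORA24, 1.96 for SNORD60, 2.01 for SNORD12B and 1.68 for SNORA20, with limma adjusted p of 0.00659, 0.00879, 0.0101, 0.0254, 0.0331 and 0.0358. These genes averaged 14.2, 12.7, 15.6, 10.9, 4.36 and 2.80 FPKM in HMLE-pBp mock. Groups of 3 libraries are too small for the check of single samples far from the others.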

How the results depend on the processing

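Counts of members called were 3 for salinomycin in HMLE-Twist, 12 in HMLE-pBp, 6 for the difference of responses and 39 between the lines under salinomycin. Of all genes 27.1%, 19.7%, 14% and 63.4% were called, and the percentages in brackets below are also of all genes. The edgeR and DESeq2 alternatives were not run, since the deposited values are not counts, and limma-voom was added after seeing the data. With log2(FPKM + 0.1) 6 passed in HMLE-pBp (18.1%), and with log2(FPKM + 5) 19 there (20.6%) and 10 for the difference (15.1%). Without the filter 7 passed in HMLE-pBp (13.2%), 3 for the difference (9.06%) and 25 between the lines (50.4%). With 10 reads in 3 libraries required, 1 passed in HMLE-Twist (25.8%) and 6 in HMLE-pBp (18.4%), of 69 members tested. With the replicate block across all groups 12, 52, 36 and 65 passed in the order above (38.4%, 34.1%, 29.3% and 70.8%). With the block within each line 20, 65 and 50 passed (41.2%, 37.2% and 32.8%). Between the lines same-numbered salinomycin libraries correlated by 0.28, 0.03 and 0.60 and mock libraries by 0.26, 0.07 and 0.57, most strongly in the third replicates. Whether that block is a pairing is not settled. limma-voom gave 1 for the difference (11.2%), and with the replicate block 20 in HMLE-pBp (34.6%) and 15 for the difference (27.8%). Without replicate 3 of every group 16, 30 and 27 passed for the first 3 (17.2%, 9.91% and 6.2%). Leaving out 1 library gave 2 to 15 (19.3% to 29.9%), 5 to 36 (10.3% to 27.1%), 3 to 27 (6.87% to 20.4%) and 22 to 51 (57% to 68%). Of the 23 members with at least 20 reads 0, 2, 2 and 6 passed. TMM scaling, keeping genes with unsettled reads, and choosing members by salinomycin columns left each count within 1.5 times. The last of these shares 112 of its 119 genes with the members. No member named for a difference changed sign: of 731 values under alternatives 604 kept the call and 127 lost it. The block within lines ended no such call. Depth limits single members: 50 of 128 averaged under 5 reads.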

Other observations

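The 263 snoRNA and scaRNA rows that missed the rule and had usable reads held few of them. Their summed reads were 57, 59 and 128 in HMLE-Twist salinomycin, against 47, 36 and 125 in HMLE-Twist mock, and 75, 83 and 158 in HMLE-pBp salinomycin, against 136, 108 and 215 in HMLE-pBp mock. The third replicate was the highest of each group there too.

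The summed CPM of histone rows, by their HIST symbols, was lower with salinomycin in both lines, with no overlap of the libraries, and 3 rows, HIST1H2BK, HIST1H1C and HIST1H2AC, held 80.4% of it. The sum of 35 rows was 45.9, 45 and 47.3 in HMLE-Twist salinomycin, against 78.5, 94.4 and 88.8 in HMLE-Twist mock, and 27.8, 24.1 and 30.3 in HMLE-pBp salinomycin, against 42.7, 40.3 and 46.8 in HMLE-pBp mock. Of 7 tested rows 5 fell with salinomycin in HMLE-Twist (71.4%, against 13.8% of all genes) and 2 in HMLE-pBp (28.6%, against 9.62%). HIST1H2AC fell furthest in both (-1.90 ± 0.18, limma adjusted p = 2.33e-05, and -1.47 ± 0.18, adjusted p = 0.00022). HIST1H1C fell in HMLE-Twist (-0.68 ± 0.11, adjusted p = 0.00103) and stood at 0.01 ± 0.11 in HMLE-pBp (adjusted p = 0.978), and HIST2H2BE at 0.05 ± 0.09 and 0.06 ± 0.09 (adjusted p = 0.729 and 0.671).

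Over the 12 libraries the genes whose log2(FPKM + 1) was most like that of SNORD47 were ATAD3B and ATP6V0C (Pearson r = 0.991 each), the member SNORD22 (0.988), PDLIM4 (0.982) and MFSD12 (0.981). The 12 libraries come from 2 lines, and the coefficients are a description over them.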
